A study of Mus musculus with 9 samples.

Results

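The 9 genes described here encode the core of the mitochondrial pathway of apoptosis and were chosen by name, because ethanol causes apoptosis in early embryos. They are the effectors Bax and Bak1, the guardians Bcl2, Bcl2l1 and Mcl1, the BH3-only genes Bcl2l11, Bbc3 and Pmaip1, and the initiator caspase Casp9. Each matched 1 of the 27095 loci in the table of gene expression, and 8 of the 9 had a mean level of at least 1 FPKM over the groups, as did 15548 loci in all. The unit FPKM counts fragments relative to exon length and to all fragments mapped in a library, so that levels of different genes can be set side by side. Pmaip1 was the gene below this minimum, and its values are given without being counted, although they enter the sum of BH3-only RNA.

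The RNA came from 9 wild type mouse fetuses at gestational day 17, with 3 fetuses in each of 3 groups. The strain is C57BL/6 in the labels and C57BL/6J in the methods. Control fetuses came from dams injected with lactated Ringer's solution on gestational day 7, and both exposed groups from dams given 2.9 g/kg EtOH intraperitoneally on that day. Exposed fetuses scored with ocular and craniofacial defects formed the affected group, and those free of such defects the unaffected group. The groups were therefore sorted by outcome after the exposure, so that affected against unaffected compares defects within the exposed animals. The labels name the tissue as fetal brain, whereas the methods describe cortex. The sex and litter of each sequenced fetus are not given in the sources used here.

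In vertebrate cells, BAX and BAK1 open pores in the outer mitochondrial membrane, and the guardians hold them in check by binding them and the BH3-only proteins. BH3-only proteins are made or released in response to stress and tip this balance towards pore formation. Cytochrome c then leaves the mitochondrion and assembles APAF1 and caspase 9 into the apoptosome, which cleaves the executioner caspases. In the developing cortex, this pathway removes progenitors and young neurons, and BAX with BCL-XL, the long product of Bcl2l1, sets the survival of newly made neurons. Much of the control of this family lies in protein binding, localization and turnover, which RNA levels do not measure.

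The deposited table held 1 FPKM of each locus for each group, a value the authors' software derived from its 3 animals. No value of a single animal was used here, so the ratios below have no replicate error, no test and no p-value, and the sequencing depth behind them is unknown. A ratio is given as log2 of FPKM + 0.1, which slightly understates the change of low genes, and a locus was counted as higher or lower when it differed by at least 1.3-fold.

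Bcl2, Bcl2l11 and Casp9 were highest in the affected group and lowest in the unaffected group, whereas Bax ran the opposite way. Mcl1 shared the order of Bax by a smaller margin, and Pmaip1 shared that of Bcl2 below the minimum level. The sequences just upstream of Bcl2, Bcl2l11, Casp9 and Bax are shown. They are the RefSeq bases from 250 before the transcription start to the last base before it, on build GRCm38.p6. Capitals mark the matches to the motifs searched on both strands. The motifs were the GC box with the letters GGGCGG, the box named for its letters CCAAT, the TATA box written as TATAAA, and the E-box in the form CACGTG. Sites of the factor AP-1 were searched as TGACTCA, those of FoxO factors as GTAAACA, and the p53 decamer by its consensus. No matches overlapped in these 4 windows. The windows lie at chr1:106714291-106714540 on the minus strand for Bcl2, chr2:128125788-128126037 on the plus strand for Bcl2l11, chr4:141793362-141793611 on the plus strand for Casp9 and chr7:45466899-45467148 on the minus strand for Bax.
Bcl2: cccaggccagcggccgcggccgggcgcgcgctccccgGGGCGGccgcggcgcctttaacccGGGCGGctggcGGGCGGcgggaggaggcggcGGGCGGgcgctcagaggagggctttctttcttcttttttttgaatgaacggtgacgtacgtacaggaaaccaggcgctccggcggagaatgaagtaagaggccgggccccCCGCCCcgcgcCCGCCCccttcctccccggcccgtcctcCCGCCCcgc
Bcl2l11: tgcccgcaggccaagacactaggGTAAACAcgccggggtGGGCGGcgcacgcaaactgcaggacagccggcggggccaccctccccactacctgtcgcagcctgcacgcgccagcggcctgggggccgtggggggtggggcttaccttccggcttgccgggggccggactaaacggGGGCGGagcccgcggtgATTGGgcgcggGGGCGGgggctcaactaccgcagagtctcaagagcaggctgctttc
Casp9: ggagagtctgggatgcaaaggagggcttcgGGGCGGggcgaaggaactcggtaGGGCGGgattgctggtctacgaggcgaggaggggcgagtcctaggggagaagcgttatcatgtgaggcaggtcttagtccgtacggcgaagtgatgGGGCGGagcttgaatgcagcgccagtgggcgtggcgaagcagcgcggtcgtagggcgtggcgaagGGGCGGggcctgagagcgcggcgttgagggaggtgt
Bax: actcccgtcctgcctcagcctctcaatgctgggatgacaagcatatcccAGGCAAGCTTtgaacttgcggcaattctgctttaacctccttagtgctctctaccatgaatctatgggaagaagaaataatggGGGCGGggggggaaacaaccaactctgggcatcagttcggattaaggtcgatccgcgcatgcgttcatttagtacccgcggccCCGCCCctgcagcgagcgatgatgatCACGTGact

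The Bcl2 window held 7 GC boxes and no other motif of the set. The Bcl2l11 window shown, that of the first of its 2 starts, held 3 GC boxes, 1 CCAAT box and 1 FoxO motif, which begins at -227 relative to the start. The Casp9 window held 4 GC boxes and none of the others. The Bax window held 2 GC boxes, 1 E-box that begins at -9 and 1 p53 decamer that begins at -201. GC content was 74.8% for Bcl2, 72.0% for Bcl2l11, 66.0% for Casp9 and 54.0% for Bax, beside a median of 52.4% over all windows.

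RefSeq gave 13 windows for 8 of the 9 genes, since some have several starts, and the window of the remaining gene is not shown. Windows of 1 gene can overlap, as those of Bbc3 at chr7:16310011-16310260 and chr7:16310181-16310430 do. At least 1 GC box stood in 9 of the 13 windows, covering 6 genes, and in 32.7% of the 32851 windows of all genes. GC content ran from 54.0% to 81.6% in the windows with a GC box and from 47.6% to 58.4% in those without. The median of all windows was 52.4%, so the GC box counts are not matched for GC content. The FoxO motif stood in 2 of the 13 windows, those of 1 start of Bcl2l11 and 1 start of Bbc3, and in 3.17% of all windows. The p53 decamer was found for Bax alone among these genes and in 7.13% of all windows. The CCAAT box was in 3 of the 13 windows and 33.8% of all, the E-box in 2 and 6.02%, the TATA box in 0 and 12.4%, and the AP-1 motif in 0 and 4.46%. A match describes letters in a window, not a bound site.

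Bax was the most abundant of the 9 genes in every group. Its product is the pore-forming effector that moves from the cytosol to mitochondria. Its level was 123 FPKM in control, 133 FPKM in unaffected and 108 FPKM in affected offspring. The affected value was thus the lowest, with log2 ratios of -0.20 against control and -0.31 against unaffected, the latter 1.24-fold lower. Unaffected against control was 0.11 on the same scale. The locus lies at chr7:45461695-45466898 on the minus strand, and the annotated gene Gm45808 overlaps it.

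Bak1, the effector that resides in the mitochondrial membrane, differed less between the groups. Its level was 15.2 FPKM in the control group, 17.0 FPKM in the unaffected and 15.8 FPKM in the affected group. The log2 ratios were 0.15 for unaffected against control, 0.05 for affected against control and -0.10 for affected against unaffected. Bax exceeded Bak1 by 8.10-fold in control, 7.85-fold in unaffected and 6.82-fold in affected offspring. The Bak1 locus at chr17:27018035-27036378 shares its span with Ggnbp1, and how reads of the shared stretch were divided is not given in the sources used here.

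**Figure D1:**
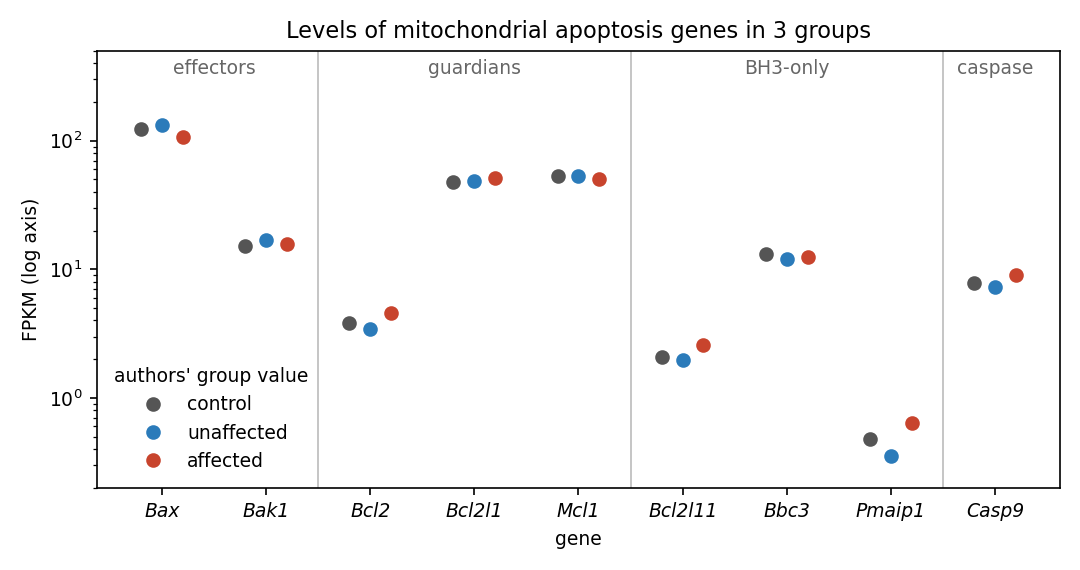
Level of each gene in FPKM on a log axis, by role, with 1 point per group that stands for the authors' value over 3 animals and no error bar because no value per animal was used. Bax lies between 108 and 133 FPKM, Mcl1 and Bcl2l1 near 50.7 and 51.6 FPKM in affected offspring, and Pmaip1 below 1 FPKM in every group.

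Among the guardians, Mcl1 and Bcl2l1 were the abundant transcripts and Bcl2 the scarce one. Mcl1, whose short-lived product is needed by neural progenitors, stood at 53.3 FPKM in the control group, 53.4 FPKM in the unaffected group and 50.7 FPKM in the affected group. These 3 levels were close together, with log2 ratios of 0.00081 for unaffected against control, -0.07 for affected against control and -0.07 for affected against unaffected. Mcl1 lies at chr3:95658721-95663178 on the plus strand, and no other gene overlaps it in the annotation.

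Bcl2l1, which encodes BCL-XL and, by splicing, a short pro-apoptotic form, was at 47.6 FPKM in control, 48.5 FPKM in unaffected and 51.6 FPKM in affected offspring. Its log2 ratios were 0.03, 0.11 and 0.09 for unaffected against control, affected against control and affected against unaffected. A gene-level value does not separate the long from the short form. Mcl1 exceeded Bcl2l1 by 1.12-fold in control and 1.10-fold in unaffected offspring, and in affected offspring the ratio was 0.982, so the order of the pair was reversed there by a margin far below 1.3-fold. The Bcl2l1 locus is chr2:152780664-152831682 on the minus strand.

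Bcl2, the founding guardian of the family, was the one gene of the 9 above the minimum level that passed 1.3-fold in any comparison. Its level was 3.804 FPKM in the control group, 3.41 FPKM in the unaffected group and 4.60 FPKM in the affected group. Affected offspring were highest, with a log2 ratio of 0.42 (1.34-fold) against unaffected and 0.27 against control, while unaffected against control was -0.15. Among all 15548 loci, the value against unaffected stood at the 86.1 percentile, so many loci differed by more. Bcl2 RNA remained far below the other guardians, with Mcl1 higher by 14.0-fold in control, 15.7-fold in unaffected and 11.0-fold in affected offspring. The locus, chr1:106538179-106714290 on the minus strand, also holds D630008O14Rik, Gm37053 and Mir3473f in the annotation.

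The BH3-only genes were low, apart from Bbc3. Bbc3 encodes PUMA, a p53 target that binds all the guardians, and was at 13.1 FPKM in control, 12.1 FPKM in unaffected and 12.5 FPKM in affected offspring. Its log2 ratios were -0.11 for unaffected against control, -0.06 for affected against control and 0.05 for affected against unaffected, among the narrowest of the set. The locus is chr7:16309583-16318334 on the plus strand.

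Bcl2l11 encodes BIM, which is induced in neurons deprived of trophic factors. It stood at 2.08 FPKM in the control group, 1.98 FPKM in the unaffected group and 2.56 FPKM in the affected group, so that both lower groups lay close together and the affected group stood above them. The log2 ratios were 0.29 (1.22-fold) for affected against control, 0.35 (1.28-fold) for affected against unaffected and -0.07 for unaffected against control. The value against unaffected lay just inside 1.3-fold. Bbc3 exceeded Bcl2l11 by 6.29-fold in control, 6.10-fold in unaffected and 4.90-fold in affected offspring. Bcl2l11 spans chr2:128126038-128162547 on the plus strand.

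Pmaip1 encodes NOXA, a p53 target that binds MCL1. It was at 0.484 FPKM in control, 0.354 FPKM in unaffected and 0.637 FPKM in affected offspring, the lowest of the 9 genes in every group. The log2 ratio of affected against unaffected was 0.70. Multiplied by its median transcript length of 2534 nt, its level in kilobases times FPKM came to 1.23, 0.897 and 1.62 in control, unaffected and affected offspring, beside 114, 114 and 108 for Mcl1. Bbc3 exceeded it by 27.0-fold in control offspring.

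Casp9, the caspase that the apoptosome activates, stood at 7.88 FPKM in the control group, 7.32 FPKM in the unaffected group and 9.01 FPKM in the affected group. The order of the groups was that of Bcl2 and Bcl2l11, with log2 ratios of 0.19 for affected against control, 0.30 (1.23-fold) for affected against unaffected and -0.10 for unaffected against control. Its locus at chr4:141793612-141826003 shares its span with Cela2a, a pancreatic elastase gene, and Ctrc overlaps it as well.

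None of the 8 genes above the minimum level differed by 1.3-fold between unaffected and control offspring, where 4.39% of all loci were higher and 5.38% lower by that rule. In affected against control offspring, again 0 of 8 passed, beside 8.59% of loci higher and 8.35% lower. In affected against unaffected offspring 1 of 8 was higher, Bcl2, and 0 of 8 were lower, beside 16.3% and 14.3% of loci. With 8 genes, shares of this size correspond to about 1 gene, so the counts for this comparison are near the background. The shares were smaller among the 12559 loci whose names matched an annotated transcript length. They were 1.49% higher and 1.25% lower in unaffected against control and 4.90% and 6.50% in affected against control. In affected against unaffected they were 12.5% and 13.3%.

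The median log2 ratio of the 8 genes was -0.03 for unaffected against control, 0.08 for affected against control and 0.07 for affected against unaffected. The same medians over all loci were 0.0068, 0.020 and 0.012. The middle 50% of loci ran from -0.24 to 0.26 in affected against unaffected, and 4 of the 8 genes fell inside it. Bax, at the 19.3 percentile, lay below that range, and Casp9, Bcl2l11 and Bcl2 lay above it, at the 77.6, 82.0 and 86.1 percentiles. The 3 comparisons share groups, so their values are not independent of each other.

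**Figure D2:**
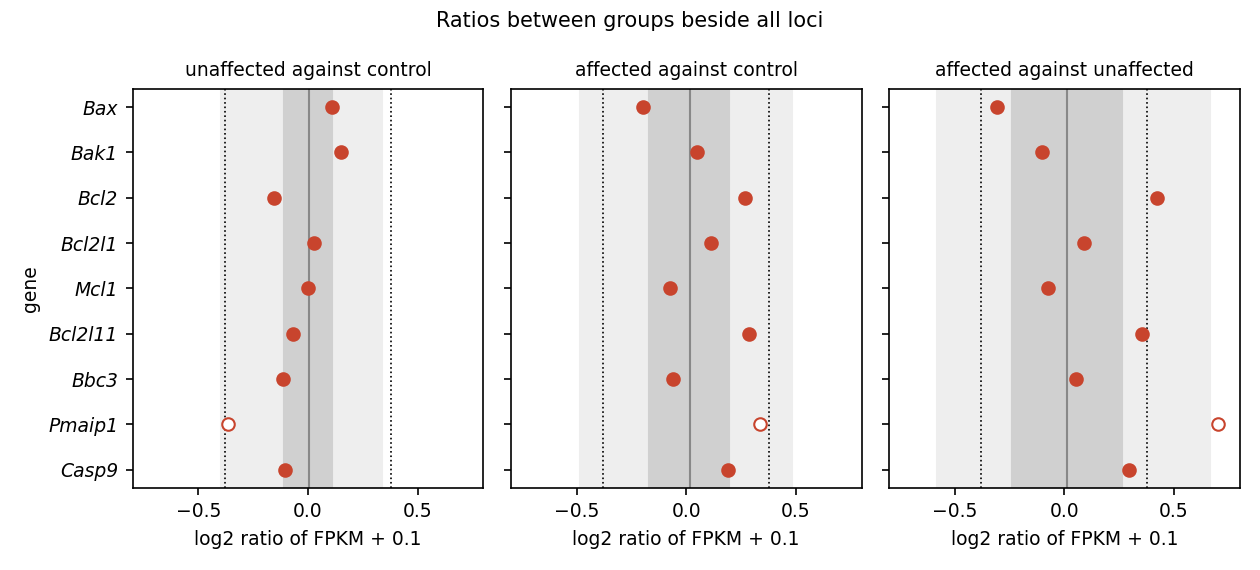
Log2 ratio of FPKM + 0.1 for each gene in the 3 comparisons, with dark shading for the middle 50% of the 15548 loci, light shading for the middle 90%, a grey line at their median and dotted lines at 1.3-fold. Filled points are genes above the minimum level and the open point is Pmaip1, and Bcl2 at 0.42 is the filled point outside the dotted lines.

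By order of the groups, Bcl2, Bcl2l11 and Casp9 were highest in affected and lowest in unaffected offspring, 3 of 8 genes, and Pmaip1 had the same order below the minimum level. That order was held by 32.3% of all loci. Bax and Mcl1 had the reverse order, unaffected above control above affected, as did 31.0% of all loci. Bcl2l1, Bbc3 and Bak1 each had an order of their own, shared with 12.6%, 6.27% and 7.96% of loci. The shared order therefore described about the same share of these genes as of the loci at large.

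The balance of the family was described by sums of FPKM. Effector RNA relative to guardian RNA, that is Bax and Bak1 over Bcl2, Bcl2l1 and Mcl1, was 1.32 in control offspring, 1.43 in exposed offspring without defects and 1.16 in those with defects. The log2 difference of this ratio was -0.30 for affected against unaffected and -0.20 for affected against control. The sum of the guardians was nearly level at 104.8, 105.3 and 106.8 FPKM, whereas the effector sum was 138.7, 150.2 and 123.4 FPKM, most of it Bax. With Bak1 as the one effector, the difference of the ratio between affected and control offspring was 0.022 and no longer negative, while that between affected and unaffected offspring was -0.12.

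BH3-only RNA, with Pmaip1 included, relative to guardian RNA was 0.149 in control offspring, 0.137 in exposed offspring without defects and 0.147 in those with defects. These levels lay within 1.3-fold of each other, with a log2 difference of 0.10 for affected against unaffected. When Bad, Bid, Bik, Bmf and Hrk were added to the BH3-only genes, and Bcl2l2 to the guardians, the ratios were 0.627, 0.657 and 0.546, and the difference for affected against unaffected changed sign to -0.27. The direction of this balance hence depended on which family genes were summed. These additions were chosen after the data were seen.

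The ratios also moved with transcript length. Length was taken as the median over the annotated transcripts of a gene in GENCODE M21, and was found for 12559 of the 15548 loci. In affected against unaffected offspring the median log2 ratio was -0.19 for the shortest of 10 equal bins of loci, with a median length of 540 nt, and 0.26 for the longest, with 4446 nt. In affected against control the corresponding values were -0.12 and 0.18, and in unaffected against control 0.07 and -0.09. Bax, at 674.5 nt, is among the shorter genes and Bcl2, at 5016 nt, among the longest, so both lie on the side that their lengths shared with the other loci. This median counts every annotated transcript, short ones included, so it need not be the length of the transcript that was expressed. It was 2009 nt for Birc6, whose product is very large, and 896 nt for Huwe1. The 1176 nt of Casp9 is a median over 6 transcripts. Values with the length trend removed rest on this measure. The part of length in these results was not tested beyond the values that follow.

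With a running median over 500 loci ordered by length subtracted, the log2 ratio of Bcl2 in affected against unaffected was 0.14, no longer past 1.3-fold. Casp9, at 1176 nt, stood 0.41 above loci of its length and passed 1.3-fold, and Bcl2l11, at 1956 nt, stood 0.36 above them. Bax remained lower, at -0.19. Bcl2l1 and Bbc3 each stood 0.16 above loci of their length, while Mcl1 at -0.12 and Bak1 at -0.09 stood below. Of the 12559 loci with a length, 12.5% were higher and 13.3% lower by 1.3-fold before this subtraction, and 11.2% and 9.26% after it. Against control, the values were 0.27 for Bcl2l11, 0.24 for Casp9, 0.08 for Bcl2 and -0.15 for Bax.

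**Figure D3:**
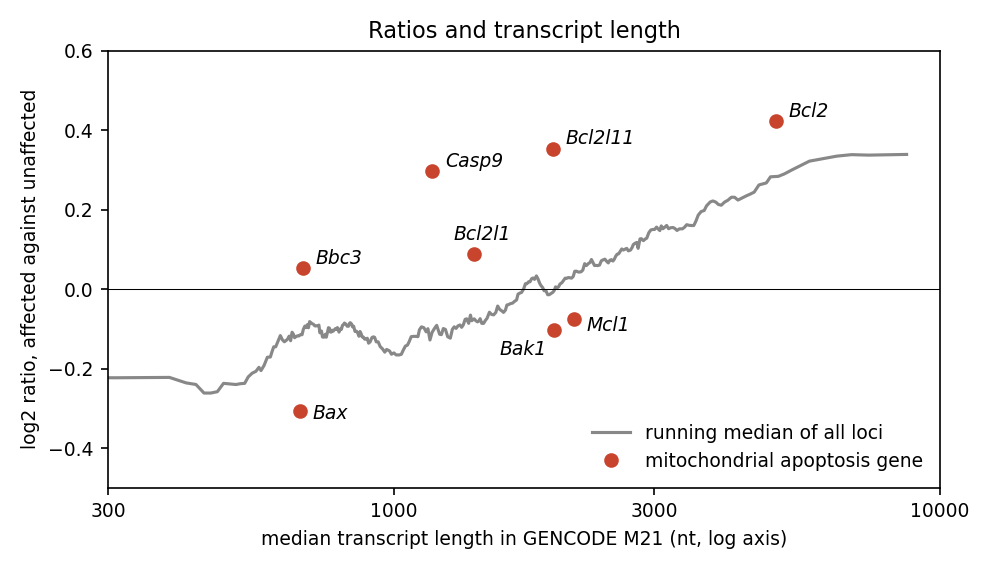
Log2 ratio of affected against unaffected for the 8 genes above the minimum level, against median transcript length in nt on a log axis. The grey line is the running median of the 12559 loci with a length. Casp9 and Bcl2l11 lie 0.41 and 0.36 above the line, and Bcl2 lies 0.14 above it at the long end.

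The other genes of the pathway were read from 8 lists, which held 79 loci above the minimum level. In affected against unaffected offspring 8 of the 79 were higher and 7 lower by 1.3-fold (10.1% and 8.86%), beside 16.3% and 14.3% of all loci. In affected against control 3 were higher and 2 lower (3.797% and 2.532%), beside 8.59% and 8.35% of all loci. In unaffected against control 0 were higher and 0 lower, beside 4.39% and 5.38%. Among the 12559 loci with a length, the shares were 4.90% and 6.50% in affected against control and 1.49% and 1.25% in unaffected against control. In affected against unaffected they were 12.5% and 13.3%. These smaller shares stand beside each list below as well. The median log2 ratio of the 79 loci in affected against unaffected was 0.0057. With the length trend removed, 8 were higher and 2 lower against unaffected (10.1% and 2.532%), beside 11.2% and 9.26% of the 12559 loci with a length. Parp1 at 0.43, Trp53i11 at 0.39 and Sesn1 at -0.44 passed 1.3-fold only then, and 8 loci named below no longer did.

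Of the other BCL2 family genes, 11 loci were above the minimum, and 3 were lower in affected against unaffected offspring, beside 14.3% of all loci. These were Bnip3 at -0.50, Bad at -0.48 and Bnip3l at -0.43, where BAD is a BH3-only protein under the control of growth factor signalling and BNIP3 and BNIP3L act in the removal of mitochondria. The Bad locus shares its span with Gpr137. Hrk, a BH3-only gene of neurons, had the highest ratio of the list at 0.23, inside 1.3-fold. Against control, 0 of the 11 passed 1.3-fold, beside 8.59% of all loci higher and 8.35% lower, and the extremes were Bnip3 at -0.37 and Bcl2l12 at 0.30, the latter at 1 of its 2 overlapping loci. With the length trend removed none of the 3 passed 1.3-fold against unaffected, with Bnip3 at -0.24, Bad at -0.32 and Bnip3l at -0.20. The median of the list was -0.03 against unaffected, 0.07 with that removal and -0.37 among loci with a mean of at least 5 FPKM.

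Downstream of the mitochondrion, 13 genes of the apoptosome and the caspases were all above the minimum. Apaf1, the scaffold on which caspase 9 is activated, was higher in affected offspring, with 5.81 FPKM in control, 5.06 FPKM in unaffected and 6.95 FPKM in affected. Its log2 ratio against unaffected was 0.45, in the same direction as that of Casp9, and 0.25 against control. Endog, a mitochondrial nuclease, was lower at -0.47, and Htra2, a mitochondrial protease that antagonizes inhibitors of apoptosis, was lower at -0.38. Both of these loci overlap another gene, and with the length trend removed both fell inside 1.3-fold, at -0.33 and -0.27, while Apaf1 stayed past it at 0.42. Cycs, which encodes cytochrome c, had a ratio of -0.28, inside 1.3-fold. The median of the 13 was -0.22 against unaffected and -0.15 against control. Against unaffected it was -0.14 with the length trend removed and -0.12 among loci with a mean of at least 5 FPKM. Of the 13, 9 had negative and 4 positive ratios against unaffected, the latter Apaf1, Parp1 at 0.22, Aifm1 at 0.08 and Casp2 at 0.03. Cycs, Parp1, Aifm1 and Casp2 were chosen after their values were seen.

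Among the inhibitors of apoptosis, 4 of 10 genes were above the minimum. Birc6, a very large inhibitor that is also a ubiquitin ligase, was higher in affected against unaffected at 0.60 and stood at 0.31 against control. Birc5, which also serves chromosome segregation in dividing cells, was lowest at -0.28. Against control, Birc2 was lowest at -0.20.

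Of the p53 family and its targets, 16 loci were above the minimum. Trp73, which encodes the p53 relative p73 and marks Cajal-Retzius neurons of the cortex, was higher in affected offspring, with 2.22 FPKM in control, 2.00 FPKM in unaffected and 3.41 FPKM in affected. Its log2 ratios were 0.74 against unaffected and 0.60 against control. Gtse1, a gene of the cell cycle, was higher against control at 0.42, or 0.34 and inside 1.3-fold with the length trend removed, and the lowest values were Sesn1 at -0.34 against unaffected and Ccng1 at -0.26 against control. The median of the list was -0.06 against unaffected, with 8 loci positive and 8 negative, and -0.22 among loci with a mean of at least 5 FPKM. Among the 9 genes, p53 is known to induce Bax, Bbc3 and Pmaip1, which stood at -0.31, 0.05 and 0.70 against unaffected, the last below the minimum level.

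None of the 9 death receptor genes above the minimum differed by 1.3-fold in any comparison. The shares of all loci higher and lower were 16.3% and 14.3% in affected against unaffected and 8.59% and 8.35% in affected against control. In unaffected against control they were 4.39% and 5.38%. Among the 12559 loci with a length the shares, in the same order, were 12.5% and 13.3%, 4.90% and 6.50%, and 1.49% and 1.25%. The range of these death receptor genes in affected against unaffected ran from -0.21 for Tradd, an adaptor, to 0.31 for Ngfr, the p75 neurotrophin receptor, with a median of -0.0032.

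Among 10 regulators of BH3-only transcription, 2 were higher in affected against unaffected, a share near the 16.3% of all loci. These were Foxo3 at 0.49 and Foxo1 at 0.39, which encode forkhead factors that are known to activate Bcl2l11 and Bbc3. Foxo3 was at 7.51 FPKM in control, 6.56 FPKM in unaffected and 9.24 FPKM in affected offspring. Atf4, a factor of the integrated stress response, was lowest at -0.34. Against control, none of the 10 passed 1.3-fold, beside 8.59% of all loci higher and 8.35% lower. With the length trend removed Foxo3 stayed past 1.3-fold against unaffected, at 0.41, and Foxo1, at 8665 nt, did not, at 0.05.

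The regulators of MCL1 turnover had the highest median of the 8 lists, 0.31 over 6 loci in affected against unaffected. It was 0.17 with the length trend removed and 0.44 among loci with a mean of at least 5 FPKM. Huwe1, a ubiquitin ligase that targets MCL1, was higher at 0.68, Usp9x, a deubiquitinase that stabilizes MCL1, at 0.47, and Bag6 at 0.42. These were 3 of the 6 loci, beside 16.3% of all loci. The list holds factors that remove MCL1 and factors that stabilize it, so its median gives no direction of turnover. With the length trend removed Usp9x fell inside 1.3-fold, at 0.36. Fbxw7, another ligase of MCL1, stood at 0.19, and Mcl1 RNA itself differed by -0.07. The median was 0.13 in affected against control, or 0.29 among loci with a mean of at least 5 FPKM, and -0.20 in unaffected against control. There all 6 loci were negative, while 51.6% of all loci were positive. The 6 loci stand for 5 genes, since Trim17 has 2. Against control Huwe1 was higher at 0.41 and the lower Trim17 locus stood at -1.43. With the length trend removed Bag6 passed 1.3-fold against control as well, at 0.40 instead of 0.35, and Huwe1 stood at 0.47. Usp9x was then at 0.15, Fbxw7 at -0.15 and the Trim17 loci at -0.32 and -1.55. The lowest value against unaffected, -1.34, belonged to 1 of 2 Trim17 loci on the same span, and the other locus stood at 0.0057, so the Trim17 values are uncertain. The Huwe1 locus also holds Mirlet7f-2 and Mir98.

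Of 10 genes for mitochondrial channels and membrane remodelling, Tspo, which encodes a cholesterol-binding protein of the outer membrane that microglia also express, was lower at -0.43 against unaffected and -0.50 against control. With the length trend removed it was inside 1.3-fold against unaffected, at -0.34, and past it against control, at -0.46. Dnm1l, the fission dynamin, was highest at 0.24 against unaffected. The median of this list was 0.0099. Of 8 reference genes set beside these lists, 4 were lower in affected against unaffected, beside 14.3% of all loci, with Ppia lowest at -0.53 (-0.37 and inside 1.3-fold with the length trend removed) and Actb highest at 0.18.

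**Figure D4:**
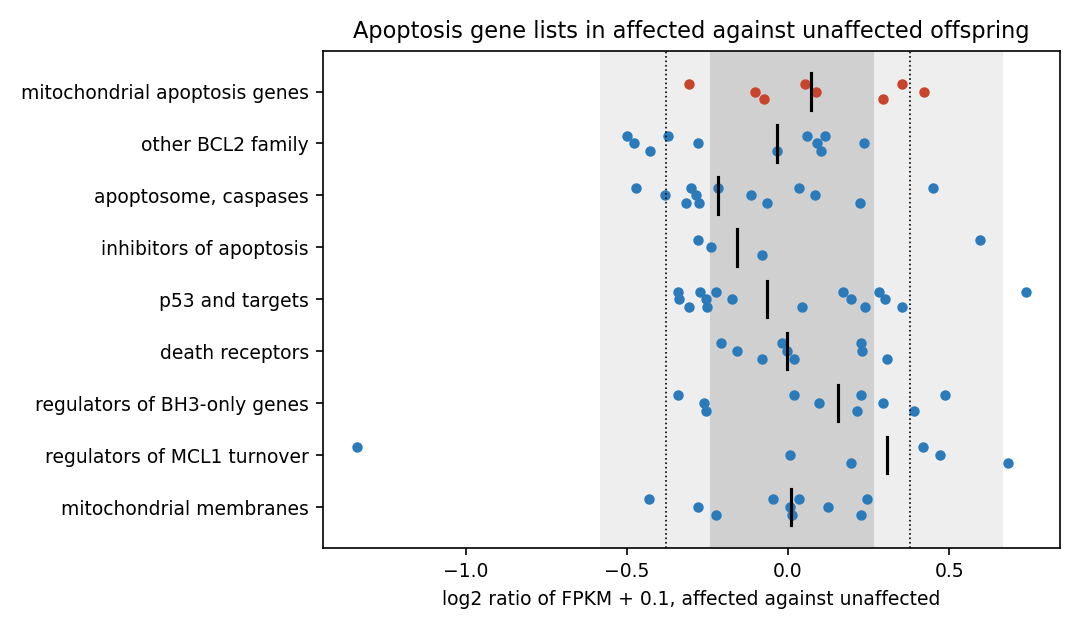
Log2 ratio of FPKM + 0.1 in affected against unaffected offspring for each locus above the minimum level, by list, with a black bar at the median of each list. Shading shows the middle 50% and 90% of all loci and dotted lines mark 1.3-fold. The single red point beyond the dotted lines is Bcl2, and the blue point at -1.34 is a Trim17 locus.

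Cell type markers also differed between the groups in the same comparison. In bulk RNA, fewer cells of a type and less RNA per cell cannot be told apart. Markers of cortical projection neurons were present in all groups, and 7 of 8 were higher in affected against unaffected, beside 16.3% of all loci, with a median of 0.61 and a summed level of 942 FPKM in control, 827 FPKM in unaffected and 1101 FPKM in affected. Markers of blood moved the other way, with 4 of 4 loci lower, beside 14.3% of all loci, and a summed level of 456, 595 and 371 FPKM. Of the blood list 5 of 8 symbols were found and 1 locus was below the minimum. Both neutrophil genes above the minimum, S100a8 and S100a9, were lower while 3 others were below it, with sums of 8.52, 13.3 and 3.59 FPKM.

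The remaining marker lists differed by less than 1.3-fold in their sums between affected and unaffected offspring. Cortical progenitors summed to 416, 435 and 502 FPKM, microglia to 57.8, 60.4 and 49.4 FPKM, endothelium to 62.86, 62.80 and 67.37 FPKM and choroid plexus to 1003, 1332 and 1120 FPKM. Meninges and fibroblasts summed to 95.3, 87.3 and 84.5 FPKM, ventral telencephalon to 167, 194 and 180 FPKM, and thalamus to 10.4, 8.16 and 9.52 FPKM. By single genes, 4 of 6 endothelial markers were higher in affected against unaffected, beside 16.3% of all loci, with a median of 0.44. Cldn5, the most abundant, stood at -0.18. Of 7 choroid plexus markers 3 were higher and 1 lower, with a median of -0.04, and Ttr, which makes up most of that sum, stood at -0.26. Of 8 progenitor markers 1 was higher and 1 lower, of 8 microglial markers 0 and 2, of 7 ventral markers 0 and 1, of 3 thalamic markers 1 and 0, and of 6 meningeal markers 0 and 0. These last counts stand beside the same 16.3% and 14.3% of all loci. The group order of Bcl2, Bcl2l11 and Casp9 was that of the projection neuron sum. It was also that of the endothelial sum, where control and unaffected, at 62.86 and 62.80 FPKM, were nearly level. The order of Bax was that of the blood, neutrophil and microglia sums. These orders were held by 32.3% and 31.0% of all loci, so such matches are common. The length trend was not removed from any marker value. Kdr and Tie1, higher at 0.56 and 0.42, have lengths of 4023 and 4091 nt, whereas Cdh5 and Flt1 have 2170.5 and 2039.5 nt. At the short end lie the Hba loci at 560.25 nt, S100a8 at 492 nt and S100a9 at 515.5 nt. The part of tissue makeup in the apoptosis genes was not tested, nor that of length in the markers.

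The loci with the most similar pattern were sought for the 3 genes above the minimum level with the widest range over the groups, by distance over both log2 ratios against control. The candidates were 8177 uniquely named protein-coding loci with a mean of at least 5 FPKM. For Bcl2 they were Lrp10 and Fam163b, at distances of 0.0065 and 0.0071. For Bcl2l11 they were Gna13 and Vangl2, both at 0.0054. For Bax they were Mrpl47 and Cirbp, at 0.0026 and 0.0028. Cirbp, a cold-inducible RNA-binding protein gene, was at 247, 266 and 215 FPKM in control, unaffected and affected offspring. With 3 group values, such close matches are a description of the pattern and nothing more.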

How the data were processed

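RNA from 9 fetuses was made into Illumina TruSeq libraries and sequenced as paired reads of 50 bases. The authors aligned the reads to mm10. STAR as well as Bowtie with TopHat appear in the methods, and the submitters' processing notes list Bowtie2 2.2.4.0, Cufflinks and Cuffdiff. The deposited table gives FPKM that the authors computed with the Cufflinks suite, as 1 value per group of 3 animals, and 0 columns held single samples, so depth and replicate error are unknown. It also holds the authors' fold changes, p-values and q-values for each comparison, which were not used. Of 27095 loci, 3871 have no name and 351 have joined names. Files were read with pandas 2.3.3 in Python 3.11.15. Log2 ratios used a pseudocount of 0.1, loci with a mean FPKM of at least 1 and a limit of 1.3-fold, and the calculation was tested on simulated data. Start coordinates were made 1-based. Transcript lengths, matched by name for 80.8% of loci, came from GENCODE M21, and promoters from RefSeq. Some single genes of the lists are not reported here. Named were the 9 genes, the highest and lowest locus of each list in affected against control and against unaffected, and the nearest patterns. Other genes named past 1.3-fold were chosen after their values were seen, and the genes and lists were chosen with earlier results of these data known.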

Additional observations from a re-analysis of the deposited data

How the results depend on the processing

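No paired analysis was possible because the table holds 1 value per group, and for the same reason no fetus could be left out in turn. Of the 8 genes above the minimum level, 1 was higher in affected against unaffected (all loci 16.3%). This count became 0 with a pseudocount of 1 (12.1%), with a mean of at least 5 FPKM (13.17%) or with 1.5-fold (6.88%). It was 2 without the filter, with Pmaip1 added (15.6%), and 3 with 1.2-fold (25.1%). With 1.2-fold, 1 was also lower against unaffected (22.9%) and 2 were higher against control (17.5%). For the pathway loci, 8 higher and 7 lower against unaffected became 5 and 4 of 56 with a mean of at least 5 FPKM (all loci 13.17% and 15.03%), 3 and 1 of 79 with 1.5-fold (6.88% and 4.91%), and 13 and 20 of 79 with 1.2-fold (25.1% and 22.9%). The 7 lower became 4 with a pseudocount of 1 (11.0% of all loci) and 2 with the length trend removed (9.26% of the 12559 loci with a length). Against control, 3 higher and 2 lower became 1 and 0 with a mean of at least 5 FPKM (5.39% and 6.96%), 1 and 1 with 1.5-fold (3.42% and 3.01%), and 10 and 6 with 1.2-fold (17.5% and 15.6%). Without the filter, 4 of 96 were lower against control (9.49%) and 2 in unaffected against control (6.38%). With 1.2-fold, unaffected against control had 2 higher and 2 lower (7.15% and 9.40%). A pseudocount of 0.01, upper quartile scaling, centring on the median and loci named by the gene alone left each of these counts within 1.5 times. Among list medians in affected against unaffected, sign changed with the length trend removed (other BCL2 family, 0.07, and death receptors, 0.09), with a mean of at least 5 FPKM (death receptors, 0.11), after centring (mitochondrial membranes, -0.0016) and after upper quartile scaling (death receptors, 9.6e-05). The median of the regulators of BH3-only transcription, 0.15, was 0.014 with the length trend removed and 0.10 with a mean of at least 5 FPKM, and that of the p53 list -0.02 with the trend removed. No log2 ratio of the 8 genes changed sign in affected against either group under any of these settings that gave a value, and Bcl2 and Bcl2l11 have none with a mean of at least 5 FPKM. In unaffected against control, Bcl2l1 was negative with the length trend removed, at -0.0035, and Mcl1 after centring, at -0.0060, and after upper quartile scaling, at -0.0050. The absence of values per fetus limits every comparison.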
